A study of Mus musculus with 40 samples.

Results

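The genes described here encode the nuclear subunits of the mitochondrial respiratory chain and ATP synthase. They were chosen by symbol alone, from the Nduf, Sdh, Uqcr, Cyc1, Cox4 to Cox8 and Atp5 name patterns, which matched 85 of 23480 rows. By name alone, 37 were placed in complex I, 4 in complex II, 9 in complex III, 18 in complex IV and 17 in complex V. A few of these names do not match the present assignment, as stated below. The expression profiles came from 4T1, a mouse mammary carcinoma cell line, infected with virus carrying 1 of 10 short hairpin RNAs (shRNAs), 5 against Slpi and 5 against Mgp. The study asked how far hairpins of the TRC collection, and hairpins picked by the shERWOOD algorithm and housed in a microRNA backbone, change genes other than their target.

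The Slpi table held the hairpin 66708, whose cells were selected with 1 µg/ml puromycin, and the hairpins Slpi1U1, Slpi1U2, Slpi2 and Slpi4, selected with 500 µg/ml hygromycin. The Mgp table held 88943, selected with the same dose of puromycin, and Mgp1, Mgp1U1, Mgp1U3 and Mgp2, selected with hygromycin. Infection was at a multiplicity of 0.3 for every line, and cells were kept under the drug for about 10 days, and no uninfected line was among the samples. 66708 and 88943 carry catalogue-style numbers and were taken to be the TRC hairpins. No label states this. Source of hairpin, vector and drug coincide and cannot be told apart, and each hairpin line is a selected population without a second, independent line in the labels. Each hairpin had 2 libraries, and the labels do not say whether these are separate cultures. P-values then reflect only the scatter between libraries, which may be technical.

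The respiratory chain passes electrons from NADH (complex I) and succinate (complex II) through ubiquinone to complex III, then through cytochrome c to complex IV, which reduces oxygen. Complexes I, III and IV pump protons across the inner mitochondrial membrane, and complex V uses the gradient to make ATP. The cores of complexes I, III and IV and the membrane part of complex V contain proteins encoded by mitochondrial DNA, while the other subunits and all of complex II come from nuclear genes. 4T1 cells are known for respiring as well as fermenting glucose. Nuclear respiratory factor 1 (NRF1), the ETS factor GABP and YY1 are known regulators of nuclear genes of this system.

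Promoter bases of 4 members are shown. Cox6a1 and Atp5l were among the members furthest above the other libraries in 66708, with log2 differences of 0.57 and 0.51. Uqcr11 was also above the other libraries there, at 0.36, and Cox7a2l was the member furthest above them in 88943. Each line gives the 250 bases before the RefSeq transcript start (GRCm38.p6, minus strand in all 4), 5′ to 3′. Capitals mark a match to GCATGCGC (an NRF1 core) or CCGGAAGT (an ETS core), on either strand. The windows are chr5:115348959-115349208 for Cox6a1, chr9:44920743-44920992 for Atp5l, chr10:80406822-80407071 for Uqcr11 and chr17:83514334-83514583 for Cox7a2l.
Cox6a1: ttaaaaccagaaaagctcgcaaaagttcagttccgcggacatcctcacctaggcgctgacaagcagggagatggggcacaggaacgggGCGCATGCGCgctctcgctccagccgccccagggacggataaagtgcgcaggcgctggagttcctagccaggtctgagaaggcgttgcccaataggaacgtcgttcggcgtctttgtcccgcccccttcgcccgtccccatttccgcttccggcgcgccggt
Atp5l: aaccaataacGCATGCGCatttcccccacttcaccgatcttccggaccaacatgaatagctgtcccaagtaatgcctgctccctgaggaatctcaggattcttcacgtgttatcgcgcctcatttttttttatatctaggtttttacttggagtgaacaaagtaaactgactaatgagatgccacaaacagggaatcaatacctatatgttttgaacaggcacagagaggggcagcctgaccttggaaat
Uqcr11: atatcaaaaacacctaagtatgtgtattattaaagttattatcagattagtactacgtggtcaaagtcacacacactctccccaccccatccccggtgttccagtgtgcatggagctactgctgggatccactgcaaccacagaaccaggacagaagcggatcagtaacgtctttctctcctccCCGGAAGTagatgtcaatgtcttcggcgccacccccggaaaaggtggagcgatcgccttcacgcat
Cox7a2l: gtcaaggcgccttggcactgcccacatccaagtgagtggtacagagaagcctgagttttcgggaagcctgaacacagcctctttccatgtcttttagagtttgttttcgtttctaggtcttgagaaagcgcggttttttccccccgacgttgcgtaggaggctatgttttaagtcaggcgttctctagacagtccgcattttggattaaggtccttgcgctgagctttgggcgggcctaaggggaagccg
In Cox6a1 the capitals are 2 overlapping NRF1 matches on opposite strands, starting 162 and 160 bases before the start. Atp5l has an NRF1 match 240 bases before the start and Uqcr11 an ETS match at 66. Cox7a2l has neither in the window shown, nor the YY1 letters AAGATGGCG. This window lies inside the GENCODE span of the gene (chr17:83501918-83517330), and the bases before the upstream end of that span were not searched. The same letters were searched in windows of 250 bases before and 50 after the start, on both strands, in the 64 tested members with a RefSeq promoter and in 27025 genes. The NRF1 letters were in 10 members (15.6%) against 3.05% of all genes, the ETS letters in 5 (7.81%) against 4.31%, and the YY1 letters in 8 (12.5%) against 1.64%. The members were limited to genes expressed enough for a test and the 27025 genes were not, so the shares come from unlike sets. The 10 with NRF1 letters were Atp5g2, Atp5k, Atp5l, Cox6a1, Ndufa11, Ndufa6, Ndufa8, Sdhb, Uqcr11 and Uqcrc1. The match of Uqcr11 did not lie wholly within the bases shown. These matches describe the letters in the windows and are not measured binding. Of members with larger differences than Uqcr11 in 66708, Uqcrh, Cox8a and Ndufa11 also had NRF1 or ETS letters. Cox4i1, Ndufb9, Ndufb8, Ndufa4, Atp5g3 and Cox6b1, also with larger differences, were not among the members with NRF1, ETS or YY1 letters. A link between these letters and the differences was not tested.

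The depth per library ran from 12.2 M to 28.5 M reads for the Slpi hairpins and from 12.1 M to 23.3 M for those against Mgp. The targeted transcripts were higher in the TRC lines than in the shERWOOD lines: Slpi was at 156.4 and 144.9 CPM (a read count scaled to a fixed library total) in the libraries labelled 66708 against 46.9 to 61.89 in the 8 others, and Mgp at 16.17 and 15.36 CPM in those labelled 88943 against 1.06 to 8.421. Mgp, not the target in the Slpi table, was also higher in 66708, with a log2 difference of 1.64 against 1.24 for Slpi. Knockdown itself was not measured, since no uninfected line was among the samples. All 7 epithelial markers were detected. Their summed level was 2260 to 2300 CPM in 66708 against 1950 to 2080, and 2550 to 2560 CPM in 88943 against 1530 to 1700, so it was high in both TRC lines. Summed leukocyte markers were low and stood apart in both TRC lines, at 3.54 to 4.15 CPM in 66708 against 5.5 to 8.56, and at 7.16 to 7.59 CPM in 88943 against 4.18 to 5.57. Muscle markers were at 5.05 to 5.36 CPM in 66708 against 1.96 to 3.69, and at 4.2 to 4.32 CPM in 88943 against 1.73 to 3.91. Fibroblast markers were at 42 to 42.1 CPM in 66708, inside 40.1 to 53.5, and at 55.4 to 58.1 CPM in 88943 against 25.1 to 34.5. Endothelial markers overlapped, between 0.227 and 0.924 CPM. Of these lists Cd3e, Kdr, Lum and Ckm were at 0 in 66708, and Cd3e, Lyz2, Kdr, Pdgfrb, Dcn, Lum and Myh7 in 88943. The part of these markers in the results below was not tested.

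Most members were well expressed, over a wide range of levels. Of the 85 rows, 83 had reads in at least 1 table. Cox8c (a testis isoform) and Ndufs5 (a complex I subunit) were listed at 0 in all 20 libraries. A further 7 were below the level needed for a test in both tables, all isoforms of restricted expression: over all 20 libraries Cox7a1 had 56 reads, Ndufa4l2 52, Cox4i2 23, Cox6b2 19, Cox8b 15, Cox6a2 6 and Cox7b2 5. Their widely expressed counterparts were all tested: Cox4i1, Cox6a1, Cox6b1, Cox7a2, Cox7b, Cox8a and Ndufa4. A gene was tested when its mean lay 1 unit above the table minimum, or 121 scaled reads (Slpi table) and 139 (Mgp table), scaled reads being reads divided by the table's size factor for the library. That left 76 members for the Slpi hairpins and 75 for the Mgp hairpins, where Atp5s also fell below.

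Levels are given as CPM per kilobase of transcript, as the median over the 20 libraries with the lowest and highest. Atp5b, the catalytic beta subunit of ATP synthase, stood far above all others at 2456 (2201 to 2589). It alone took 0.422% to 0.496% of the reads of a library. Ndufb9, an accessory subunit of complex I, followed at 513 (363 to 647.5), then Cox4i1, the main regulatory subunit of complex IV, at 478 (356.1 to 646.6). Next came Cox6a1 at 410 (293.3 to 590.3), Atp5g3, 1 of 3 genes for the c-ring subunit, at 406 (339.6 to 511.2), and Ndufa4 at 384 (315.2 to 499.1). From Ndufb9 to Ndufa4 the ranges of neighbours overlapped. The medians by complex were 51.3 for I, 62.2 for II, 83.9 for III, 155 for IV and 100 for V. Uqcrh led complex III at 294 and Sdhd complex II at 216, while the lowest tested members were Atp5sl at 4.38, Atp5s at 4.43 and Ndufb2 at 4.52. Atp5s and Atp5sl carry the family name but are not structural subunits of the ATP synthase.

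**Figure D1:**
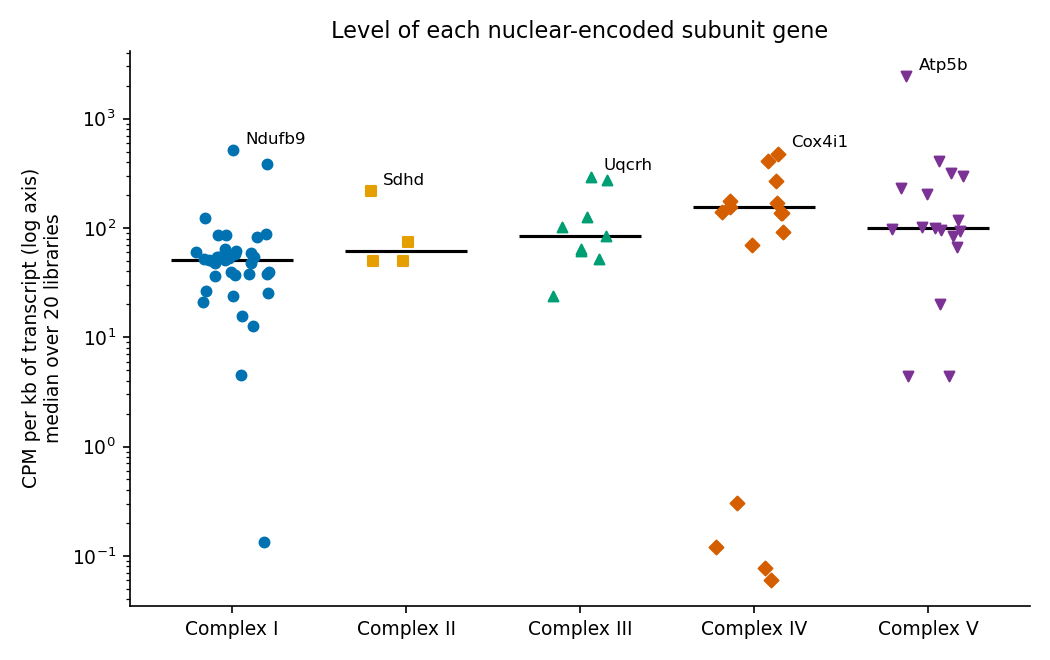
Level of each member with a median above 0, in CPM per kilobase of transcript on a log axis, by complex; points are medians over 20 libraries and bars the medians of the tested members. The 5 lowest points are isoforms with too few reads for a test. Atp5b at 2456 stands apart from the rest, and the complexes overlap over most of their range.

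In the cells carrying 66708, transcripts of the respiratory chain were broadly higher than in the other 4 lines of the Slpi table. Of 76 tested members 56 were higher (73.7%, where 32.1% of all tested genes were higher) and 1 was lower (1.32%, where 23.6% of all genes were lower), by limma on the deposited log2 values at an adjusted p under 0.05. The median member was 0.225 higher on the log2 scale, against 0.022 over all tested genes, and 73 of 76 members were on the higher side. In 49 members both 66708 libraries lay above all 8 others (28.3% of all genes did), and in 1 both lay below (20.4% of all genes). The members' share of all reads was 1.30% and 1.26% in the 66708 libraries against 1.13% to 1.22% in the others. On the deposited scale a doubling of 1000 scaled reads is a difference of 0.77, so log2 differences understate the folds of weakly expressed members, and folds below are ratios of scaled reads. In bulk RNA, fewer cells with a transcript and less of it per cell cannot be told apart.

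All 11 tested complex IV members were higher in 66708, with a median of 0.31 and a range of 0.19 to 0.57. Of all genes 32.1% were higher and 23.6% lower, and these shares also stand beside the complexes that follow. Cox6a1, a small subunit next to the catalytic core (ENSMUSG00000041697, chr5:115345642-115348981), was at 5892 and 5029 scaled reads in the 66708 libraries, against a lowest of 2709, a median of 3506 and a highest of 4227 in the 8 others. The groups did not overlap, and Cox6a1 was 1.55-fold higher (log2 difference 0.57 ± 0.08 SE, n = 2 libraries against 8, limma adjusted p = 2.11e-05). Cox4i1 (chr8:120668222-120674207, plus strand) was at 8534 and 7716 scaled reads against 4350, 5546 and 6033 as lowest, median and highest. It too did not overlap and was 1.5-fold higher (0.55 ± 0.06 SE, limma adjusted p = 4.90e-06). Cox6b1, which helps to hold the dimer of complex IV together, was 1.45-fold higher, and Cox8a, a single-span subunit, 1.37-fold. Cox5a was 1.32-fold higher, and Cox7b 1.21-fold. The smallest difference was that of Cox7a2l, known for joining complexes III and IV into supercomplexes, at 3289 and 2897 scaled reads against 2265 to 3112 with a median of 2642. Here the groups overlapped, since a Slpi4 library lay above a 66708 library. The difference of 0.19 ± 0.05 (SE, limma adjusted p = 0.00261) fell to 0.11 without 66708 replicate 1 (limma adjusted p = 0.125), and the call was lost with the mean of each hairpin taken as 1 sample (limma adjusted p = 0.142).

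Complex V had 14 of 17 tested members higher in 66708 and 1 lower, with a median of 0.25. Atp5l, the g subunit of the membrane stalk region (chr9:44912557-44920742), was at 1521 and 1388 scaled reads against 776.5 to 1031 with a median of 884.3. It had the largest fold of all members, 1.61-fold higher without overlap (0.51 ± 0.04 SE, limma adjusted p = 1.84e-07). The 3 c-ring genes, which encode the same mature protein, were all higher: Atp5g1 by 1.40-fold, Atp5g2 by 1.38-fold and Atp5g3 by 1.39-fold. Atp5g3 (chr2:73908447-73911326) was at 5974 and 5920 scaled reads against 4029 to 4691 with a median of 4228. The catalytic subunit gene Atp5b did not pass the test: its libraries held 76830 and 77270 scaled reads, inside the range of 68020 to 81300 of the others (limma adjusted p = 0.637). The 17 include Atp5s and Atp5sl, which are not structural subunits, and Atp5sl was not called (limma adjusted p = 0.67). Atp5s was the 1 lower member, at 100.1 and 78.02 scaled reads against 117.9 to 163.6 with a median of 136. That is 1.58-fold lower (limma adjusted p = 0.000634), in a gene with few reads.

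**Figure D2:**
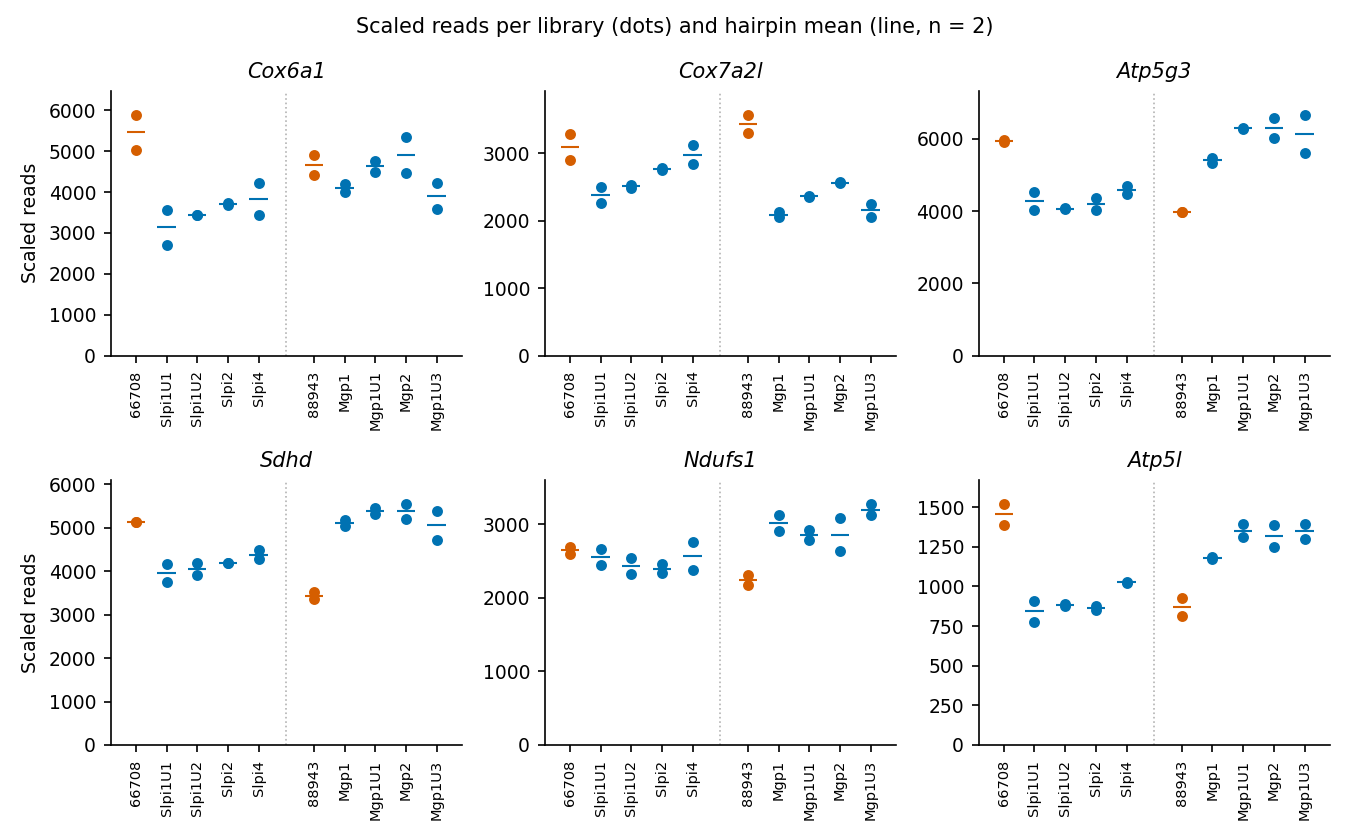
Scaled reads of 6 members in each of the 20 libraries, orange for the TRC hairpins and blue for the shERWOOD hairpins; each point is 1 library. Cox6a1 lies above the other libraries in 66708 and among them in 88943, while Atp5g3, Sdhd and Atp5l lie above the other libraries in 66708 and below them in 88943.

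In complex I, 24 of 35 tested members were higher in 66708 and 0 lower, with differences from 0.0029 to 0.49 and a median of 0.19. Of the 7 nuclear core subunits, which carry the flavin and iron-sulfur clusters, 5 were higher (median 0.18), and of the 28 tested accessory subunits 19 (median 0.20). Ndufb9 was at 7969 and 7135 scaled reads against 4134 to 5816 with a median of 5371, a 1.43-fold difference without overlap (limma adjusted p = 2.87e-05). Ndufb8, in the distal membrane arm, was 1.53-fold higher. Ndufa11, at the contact with complex III, was at 735.2 and 658.9 scaled reads against 391.4 to 496.2 with a median of 432, or 1.59-fold higher. Ndufa4, first assigned to complex I by name and now counted with complex IV, was at 4013 and 3756 scaled reads against 2411 to 2979 with a median of 2755, or 1.42-fold higher. The core subunit Ndufs1, which takes electrons along the peripheral arm, was at 2598 and 2691 scaled reads inside a range of 2322 to 2758 (limma adjusted p = 0.185). Ndufa12 had the smallest difference, 0.0029 (limma adjusted p = 0.968).

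Complex II had 3 of 4 members higher in 66708. Sdhb, the iron-sulfur subunit, was at 1770 and 1682 scaled reads against 1195 to 1413 with a median of 1344, 1.31-fold higher. Sdhd, a membrane anchor, was at 5141 and 5138 scaled reads against 3746 to 4478 with a median of 4187, 1.24-fold higher. Neither overlapped the other lines. Sdha, the flavoprotein, was 1.09-fold higher (0.10 ± 0.04 SE, limma adjusted p = 0.0229), which fell to 0.076 without 66708 replicate 2 (limma adjusted p = 0.22). That call was also lost with equal library medians (limma adjusted p = 0.0949), quantile normalization (0.179), library totals (0.512) and hairpin means (0.15). Sdhc, the other anchor, overlapped, with 1789 and 1720 scaled reads against 1568 to 2054.

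Complex III had 4 of 9 members higher in 66708, not far from the 32.1% of all genes, with a median of 0.11. These 4 are small subunits with transcripts under 700 nt, a class in which 60.1% of other genes were higher. Uqcrb, with a transcript of 535 nt, did not pass. Uqcrh, the hinge protein between cytochrome c1 and cytochrome c, was at 3270 and 2915 scaled reads against 1960 to 2504 with a median of 2229, 1.40-fold higher without overlap (limma adjusted p = 1.27e-05). Uqcr11 was at 1136 and 1022 scaled reads against 622.4 to 827 with a median of 747.9, 1.44-fold higher. Uqcr10 was 1.32-fold and Uqcrq 1.30-fold higher, the latter with a limma adjusted p of 0.0731 without 66708 replicate 1. The 5 that did not pass were Uqcrb, both large core proteins, Uqcrc1 (0.015) and Uqcrc2 (0.092), the Rieske protein Uqcrfs1 (0.037) and cytochrome c1, Cyc1 (0.034).

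In the cells carrying 88943, respiratory chain transcripts were more often lower than higher when set against the other 4 lines of the Mgp table. Of 75 tested members 44 were lower (58.7%, where 42% of all tested genes were lower) and 5 were higher (6.67%, where 28.7% of all genes were higher). The median member was 0.135 lower, with the median of all tested genes at -0.041, and 60 of 75 members were on the lower side. The excess over all genes depended on the level of expression. Among genes with a mean at least 3 units above the table minimum, 15 of 26 members were lower (57.7%, all genes 59.3%). The median of all genes was then -0.151. In 30 members both 88943 libraries lay below all 8 others (36.2% of all genes did) and in 3 both lay above (24.3%). Without 88943 replicate 2 the count of lower members was 28 (37.3%), close to the 35.9% of all genes lower in that fit. The count of higher members moved to 3 without 88943 replicate 1 (all genes 23.7%) and to 8 without Mgp2 replicate 1 (all genes 30.3%). With the mean of each hairpin taken as 1 sample, 25 were lower (33.3%, all genes 27.5%) and 1 higher (1.33%, all genes 17.7%). It also depended on scaling: with reads scaled to library totals the median of all genes moved from -0.041 to 0.072, 28 members were lower and 16 higher (all genes 29% and 43%), and the member median was -0.087. The higher and lower counts were then 7 and 11 in complex I, 2 and 2 in II, 1 and 2 in III, 4 and 4 in IV, and 2 and 9 in V, so complexes II and IV then had as many higher as lower calls. The same setting in 66708 gave 46 members higher and 2 lower (all genes 21.7% and 35.2%), with the median of all genes at -0.055. The members' share of all reads, 1.24% and 1.19% in 88943, lay inside the 1.19% to 1.28% of the other libraries.

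**Figure D3:**
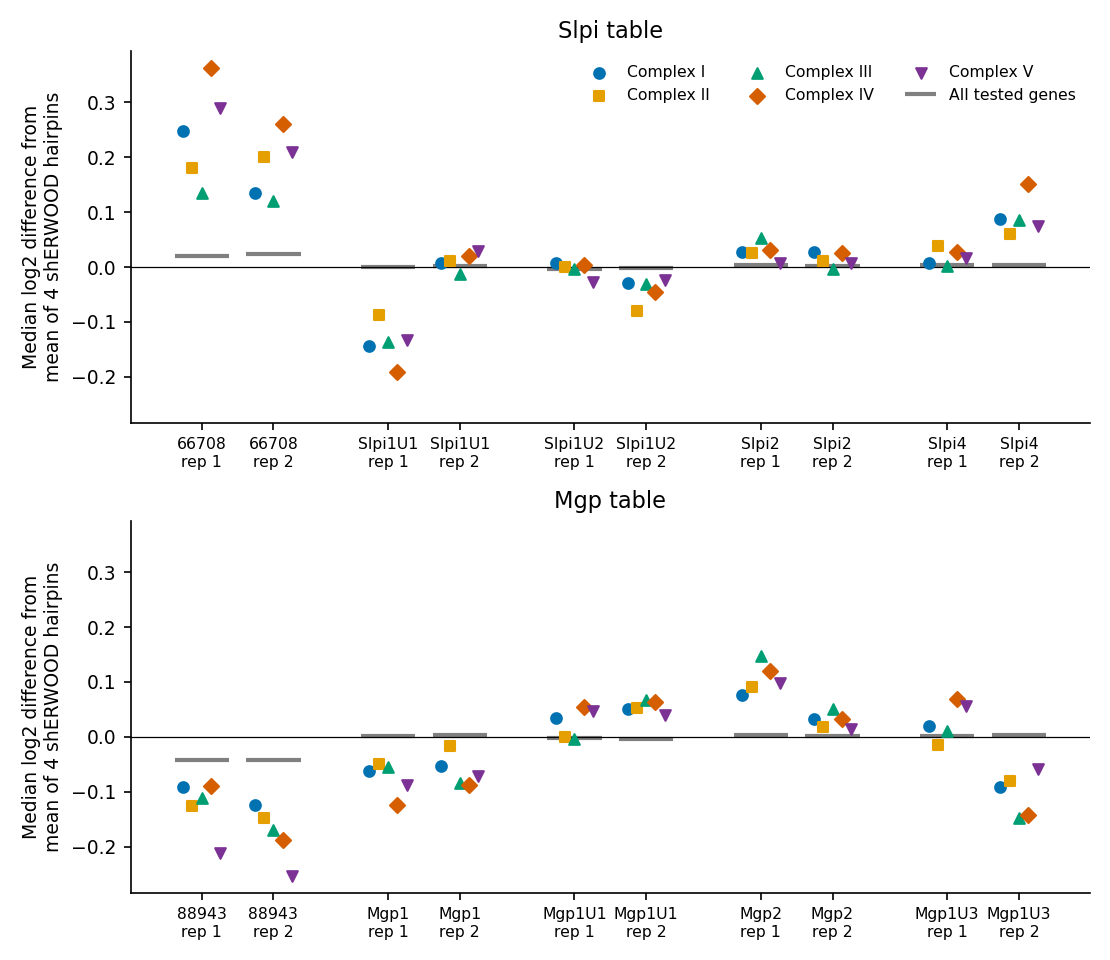
Median deviation of the members from the mean of the shERWOOD hairpins, on the deposited log2 scale, for each library and complex; grey bars give all tested genes. The 66708 libraries sit at 0.29 and 0.19 over all members and the 88943 libraries at -0.10 and -0.16.

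Complex V carried the lowest median in 88943, -0.24, with 12 of 16 tested members lower and 0 higher (all genes 42% and 28.7%, as for the complexes that follow). Atp5g3 was at 3986 and 3969 scaled reads, against a lowest of 5335, a median of 6152 and a highest of 6673 in the 8 others. The groups did not overlap, and Atp5g3 was 1.52-fold lower (-0.54 ± 0.05 SE, n = 2 libraries against 8, limma adjusted p = 5.24e-08). Atp5f1, the b subunit of the peripheral stalk, was at 1870 and 1900 scaled reads against 2743 to 3146 with a median of 2816, 1.53-fold lower (limma adjusted p = 5.21e-09). Atp5l was at 925.4 and 813.8 scaled reads against 1171 to 1395 with a median of 1305, 1.49-fold lower. Atp5o, the oligomycin sensitivity protein, was 1.36-fold lower, and 43.8% of its exon bases are shared with other annotated genes, with the strand of counting not given. The c-ring genes differed: Atp5g1 was 1.29-fold lower, while Atp5g2 was at 904.2 and 824.2 scaled reads inside a range of 643.7 to 1075. Atp5b was lower by 0.13 (limma adjusted p = 0.0239), a call lost without either 88943 library (limma adjusted p = 0.0848 and 0.163) and without Mgp1 replicate 2 (0.0527), and the difference was 0.0038 with library totals.

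In complex II, 2 of 4 members were lower in 88943 and 1 higher, near the 42% lower and 28.7% higher of all genes. Sdhd (chr9:50596357-50603812) was at 3517 and 3349 scaled reads against 4724 to 5549 with a median of 5254. It was 1.52-fold lower without overlap (-0.54 ± 0.04 SE, limma adjusted p = 1.26e-08). Sdhb was at 1297 and 1340 scaled reads against 1500 to 1877, 1.28-fold lower. Sdha went the other way, at 2847 and 2786 scaled reads against 2445 to 2575 with a median of 2500, 1.13-fold higher without overlap (limma adjusted p = 0.000499), a call lost with hairpin means (limma adjusted p = 0.0934). Sdhc overlapped the other lines, at 1645 and 1533 scaled reads against 1422 to 1756.

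In complex I, 17 of 35 tested members were lower in 88943, a share close to the 42% of all genes, and 3 were higher (all genes 28.7%), with a median of -0.091. Ndufa4 was at 2377 and 2356 scaled reads against 3019 to 3746 with a median of 3355, 1.43-fold lower (limma adjusted p = 2.73e-07). Ndufs1 (chr1:63143596-63176833) was at 2167 and 2307 scaled reads against 2635 to 3275 with a median of 3001, 1.33-fold lower (limma adjusted p = 4.32e-06). It was the 1 lower gene among the 7 core subunits. Ndufb6, an accessory subunit, was 1.51-fold lower, with 39% of its exon bases shared with other genes, and Ndufc2 1.35-fold lower. Ndufb11, in the membrane arm, was at 1178 and 1101 scaled reads against 792.7 to 1065, 1.20-fold higher without overlap, a call lost with hairpin means (limma adjusted p = 0.0837). Ndufv3, beside the flavoprotein, was 1.21-fold higher, with a limma adjusted p of 0.0784 without 88943 replicate 1 and 0.0897 with hairpin means. Ndufb9, among the highest in 66708, was at 6766 and 6224 scaled reads inside a range of 6199 to 7403.

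Complex IV had 7 of 11 tested members lower in 88943 and 1 higher, with a median of -0.15. Cox7b, a small subunit, was at 1976 and 1874 scaled reads against 2327 to 2850 with a median of 2692, 1.37-fold lower (limma adjusted p = 2.51e-06). Cox5a, a subunit facing the matrix, was 1.28-fold lower. Cox7a2l (chr17:83501918-83517330) was the exception and had the largest positive difference of all members in this table. It was at 3569 and 3300 scaled reads against a lowest of 2054, a median of 2298 and a highest of 2565, which is 1.5-fold higher without overlap (0.50 ± 0.04 SE, limma adjusted p = 6.00e-09). Cox6a1 and Cox4i1, with the largest log2 differences in 66708, overlapped here: Cox6a1 was at 4898 and 4420 scaled reads against 3576 to 5348, and Cox4i1 at 7137 and 6422 against 6074 to 7584. Their calls depended on scaling. With library totals both were higher in 88943, by 0.23 (limma adjusted p = 0.00305) and 0.13 (limma adjusted p = 0.0286), and Cox6a1 was also called without Mgp2 replicate 1 (0.11, limma adjusted p = 0.0233).

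Complex III had 6 of 9 members lower in 88943 and 0 higher, with a median of -0.15. Uqcrh was at 2266 and 2141 scaled reads against 2393 to 3000 with a median of 2690, 1.21-fold lower without overlap (limma adjusted p = 0.000132). Uqcrc2 was at 1621 and 1602 scaled reads against 1752 to 1999, 1.15-fold lower, a difference of -0.066 with library totals (limma adjusted p = 0.173). Uqcrq was 1.29-fold lower, and its call was lost without 88943 replicate 2 (limma adjusted p = 0.0704). Uqcr11, among the highest of the complex in 66708, was at 739.9 and 645 scaled reads, overlapping the 675 to 976.2 of the others, and 1.18-fold lower (limma adjusted p = 0.0243).

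The 66708 and 88943 comparisons share no library, and the 2 tables were normalized separately, so their values are set side by side without a test of the difference. Of 75 members tested in both, 39 were higher in 66708 and lower in 88943 (52%, where 18.4% of the 9144 genes tested in both were). In 22 of these both TRC libraries were beyond all 8 others, above in 66708 and below in 88943 (29.3% of the members and 14.4% of all genes), among them Atp5g3, Atp5l, Atp5f1, Sdhd, Sdhb, Ndufa4 and Uqcrh. Members higher in both included Cox7a2l, Ndufb11 and Sdha, but with hairpin means the calls of Cox7a2l and Sdha in 66708 and of Ndufb11 and Sdha in 88943 were lost. A further 13 were higher in 66708 alone by these calls, 5 lower in 88943 alone (Atp5b, Ndufb6, Ndufs1, Uqcrc2 and Uqcrfs1), 1 higher in 88943 alone (Ndufv3), and 13 passed in neither. Complex II was split: Sdhb and Sdhd were in the group of 39, Sdha was higher in both and Sdhc passed in neither.

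**Figure D4:**
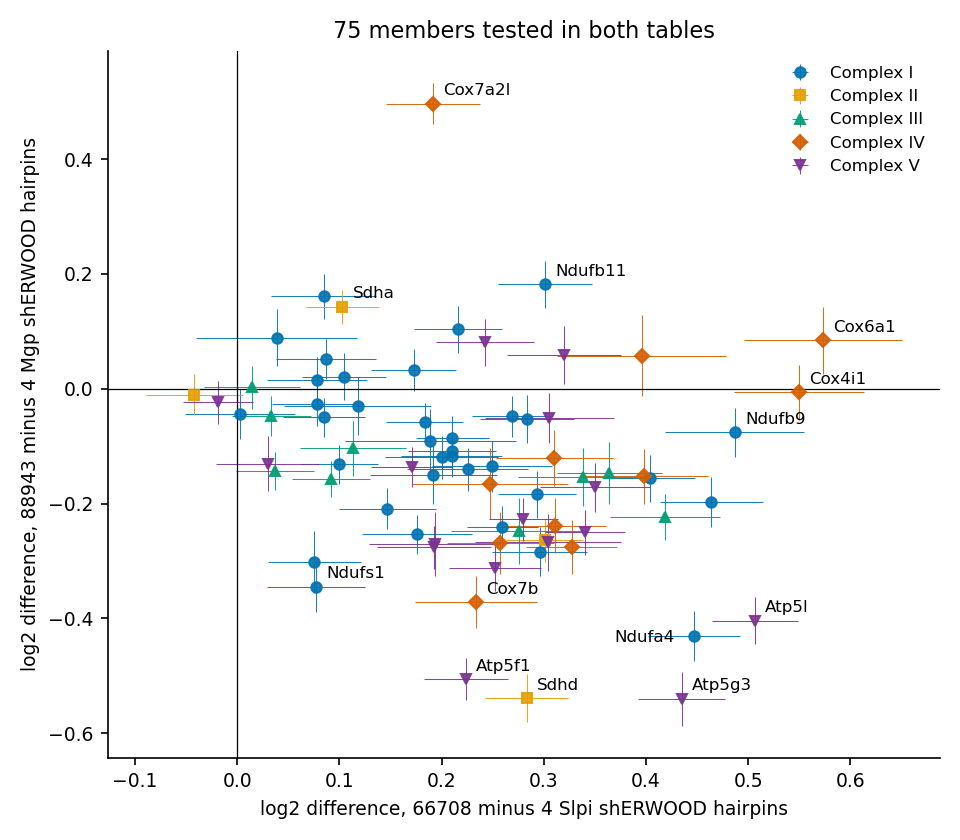
Difference of 66708 (x axis) and of 88943 (y axis) from the mean of the 4 shERWOOD hairpins of the same table, deposited log2 scale; each point is a member, coloured by complex, with bars of 1 SE. Most points lie to the right of 0 and below 0, and Cox7a2l stands alone at 0.19 and 0.50.

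The shERWOOD hairpins were each set against the other 3 of their table. In the Slpi table limma's moderated F test called 1 of 76 members as different among the 4 hairpins (7.55% of all genes), a complex IV gene. Against the other 3, Slpi1U1 had 0 members higher and 0 lower (all genes 0.706% and 1.1%), Slpi1U2 0 and 0 (0.39% and 0.959%) and Slpi2 0 and 0 (2% and 1.64%) by limma. At an unadjusted limma p under 0.05 Slpi1U1 had 0 higher and 23 lower (all genes 7.5% and 9.18%). Slpi1U2 had 0 and 8 (6.65% and 9.07%), and Slpi2 3 and 1 (8.92% and 8.17%). With adjusted p-values limma's voom with library totals or TMM factors also called 0 in each of the 3. Slpi4 had 3 higher and 0 lower (2.74% and 3%): Atp5l by 0.18 (limma adjusted p = 0.0278), Cox7a2l by 0.19 (0.0286) and Ndufa9 by 0.13 (0.0494). The member medians were -0.079 in Slpi1U1, -0.020 in Slpi1U2, 0.025 in Slpi2 and 0.079 in Slpi4. Libraries of 1 hairpin could differ as much as hairpins did. Slpi1U1 replicate 1 had a member median of -0.15 against the shERWOOD mean, and its partner 0.011. Without replicate 2 of Slpi1U1 the F test called 27 members (35.5%, all genes 13.6%), and the contrast of that hairpin 26, all lower (34.2%, all genes 3.99% lower), that of Slpi4 11 (14.5%, all genes 7.89% in either direction) and that of Slpi2 1 (all genes 5.05%). The F call was lost without Slpi1U2 replicate 1, either Slpi2 library or Slpi4 replicate 2. The 3 calls of Slpi4 were lost without Slpi1U2 replicate 1, either Slpi2 library or either Slpi4 library, and Slpi2 also had 1 call without Slpi1U1 replicate 1 (all genes 3.7%). In those fits the F test called 3.84% to 5.65% of all genes, and the contrast of Slpi4 0.78% to 4.55%.

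For the Mgp hairpins, 26 of 75 members differed among the shERWOOD hairpins (34.7%, where 29.4% of all genes did). Mgp1 had 10 lower and 0 higher (all genes 3.49% and 4.01%), led by Atp5g2 at -0.23 (limma adjusted p = 0.0180), Uqcr11 at -0.21 (0.0325) and Ndufb8 at -0.20 (0.0180). Mgp2 had 11 higher and 0 lower (all genes 8.22% and 9.69%), led by Cox8a at 0.24 (limma adjusted p = 0.0334), Atp5g2 at 0.23 (0.00921) and Ndufa13 at 0.23 (0.00850). Atp5g2 shows this spread: 643.7 and 702.1 scaled reads in Mgp1, 759.4 and 826.1 in Mgp1U1, 894.4 and 768.7 in Mgp1U3, and 1075 and 874.2 in Mgp2. Mgp1U1 had 1 higher, Ndufa1 at 0.15 (limma adjusted p = 0.0351), and 0 lower (2.16% and 3.4%). Mgp1U3 had 2 higher and 4 lower (all genes 7.98% and 7.12%), among them Cox8a at -0.25 (limma adjusted p = 0.0315), Cox6a1 at -0.20 (0.0389) and Cyc1 at -0.15 (0.0132). The member medians were -0.095 in Mgp1, 0.056 in Mgp1U1, 0.074 in Mgp2 and -0.040 in Mgp1U3. With each library's trend with transcript length subtracted, as described below, these were -0.024, 0.011, 0.018 and -0.0090. Mgp1 then had 2 lower and 0 higher (all genes 2.69% and 4.55%), so its lower share was at that of all genes. In that setting Mgp2 had 9 higher and 1 lower (all genes 8.65% and 8.52%). Again libraries of a hairpin stood apart: Mgp2 replicate 1 and 2 had member medians of 0.095 and 0.032, and those of Mgp1U3 0.038 and -0.092.

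Each of these counts moved when single libraries were left out, and so did the share of all genes called in the same fit, given in parentheses for calls in either direction. The F test called 4 members without Mgp1 replicate 1 (16.2%), 8 without Mgp1 replicate 2 (16.3%), 13 and 8 without Mgp1U1 replicate 1 and 2 (18.5% and 16.9%), 49 without Mgp2 replicate 2 (49.3%) and 42 without Mgp1U3 replicate 1 (27.5%). Mgp1 had 0 calls without either of its own libraries (0.338% and 0.501%), 6 without either 88943 library (5.13%), and 5 and 2 without Mgp1U1 replicate 1 and 2 (3.56% and 3.52%). It had 17 and 36 without Mgp2 replicate 1 and 2 (11.9% and 18.8%), and 6 and 25 without Mgp1U3 replicate 1 and 2 (5.72% and 8.52%). Mgp2 had 2 and 33 without its own replicate 1 and 2 (5.71% and 34.2%), 5 without Mgp1 replicate 1 (11.6%), 6 without Mgp1U1 replicate 1 (10.3%), and 29 and 6 without Mgp1U3 replicate 1 and 2 (20.5% and 14.1%). Mgp1U3 had 12 and 0 without its own replicate 1 and 2 (11.5% and 1.9%), 3 without either 88943 library (11.7%), 1 without either Mgp1 library or Mgp1U1 replicate 2 (8.92% to 10.4%), and 17 without Mgp2 replicate 2 (30.3%). Mgp1U1 had 14 and 4 calls without Mgp2 replicate 1 and 2 (13.2% and 10.2%), 7 without Mgp1U3 replicate 1 (6.65%), and 0 without each of the other libraries (0.785% to 3.89%). In the comparison of 66708 the count of higher members stayed between 40 (52.6%, all genes 23.3%) and 62 (81.6%, all genes 33.2%) whichever library was left out.

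Members have short transcripts, and differences moved with transcript length in these libraries. The median transcript length was 751 nt in members and 2797 nt in all tested genes of the Slpi table. Across all genes of that table the difference of 66708 had a Spearman rho of -0.223 with length, and across members -0.437; genes share libraries and are not independent replicates. For 88943 the rhos were 0.0886 and 0.205. Among genes under 700 nt, 26 of 32 members (81.2%) were higher in 66708, against 60.1% of other genes of that class. From 700 to 1500 nt it was 22 of 27 members against 44.6% of other genes, and above 1500 nt 8 of 17 against 28.6%. In 88943 the lower members were 23 of 32 (other genes 42.9%), 14 of 27 (45.3%) and 7 of 16 (41.3%) in the same 3 classes. With each library's curve of deviation against length subtracted, an alternative chosen after seeing the data, 43 members were higher and 2 lower in 66708, with a median of 0.13 (all genes 31% and 23.8%). In 88943 it left 41 lower and 10 higher, with a median of -0.10 (all genes 42.1% and 29.2%). Cox4i1 then differed by 0.43 in 66708, Cox6a1 by 0.42, Atp5l by 0.34 and Sdhd by 0.23, and in 88943 Sdhd by -0.51, Atp5l by -0.36 and Cox7a2l by 0.53. The 45S ribosomal RNA precursor, Rn45s, took 2.77% and 2.31% of the reads in 66708 against 1.27% to 1.87% in the other 8 libraries, and 1.54% and 1.39% in 88943 against 0.961% to 2.39%. The part of RNA or library quality in the pattern with length was not tested.

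**Figure D5:**
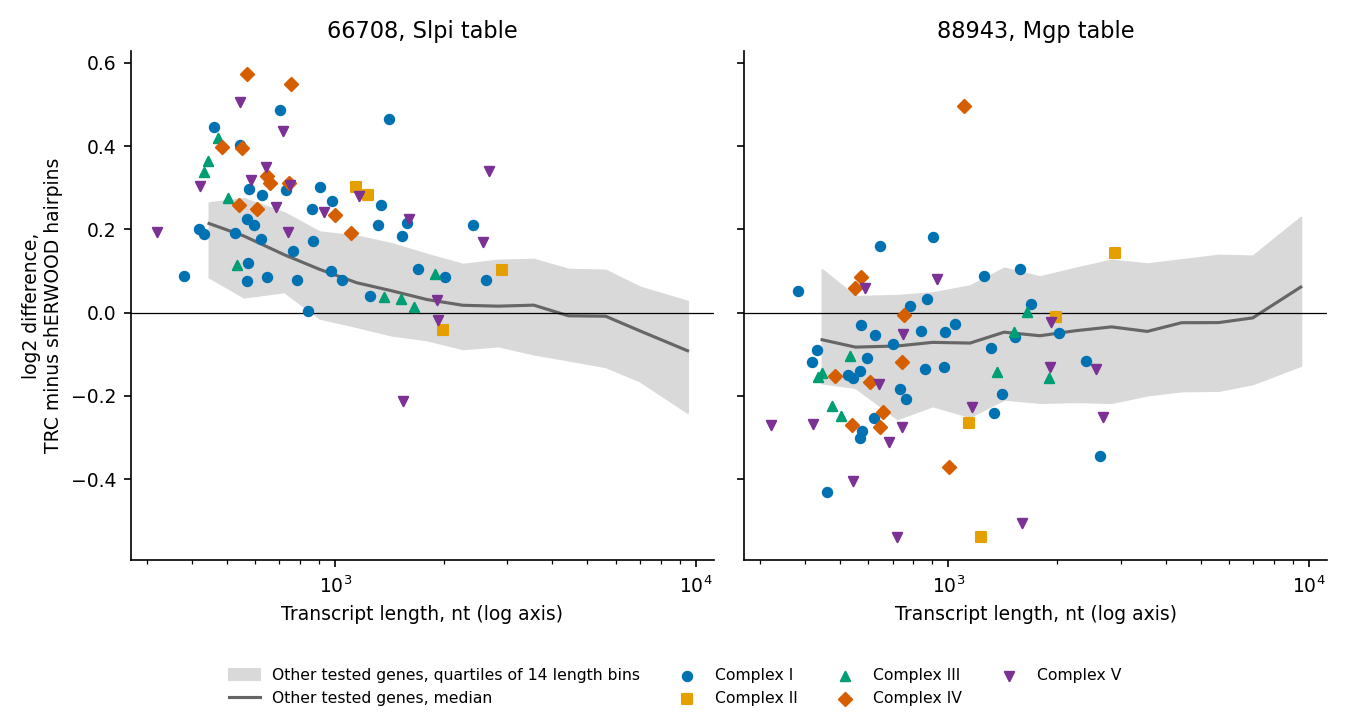
Difference of the TRC hairpin from the shERWOOD mean (deposited log2 scale) against transcript length in nt on a log axis; points are members, and the line with its band gives the median and quartiles of the other tested genes in 14 length bins. In the 66708 panel the line falls with length and most members lie above it.

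Genes around the chain were taken from 5 further lists. Their counts stand beside 32.1% higher and 23.6% lower among all genes in 66708, and 28.7% and 42% in 88943. Of 35 tested assembly factors, 6 were higher and 5 lower in 66708 (median -0.014), and 5 were higher and 14 lower of 34 in 88943 (median -0.058), the lower ones at about the share of all genes. Ndufaf4, an assembly factor of complex I, was 1.40-fold higher in 66708 (limma adjusted p = 3.08e-05) and 2.56-fold lower in 88943 (limma adjusted p = 1.95e-11). Cox20, a chaperone of complex IV, moved the other way, by -0.39 in 66708 and 0.28 in 88943. Sdhaf2, which attaches flavin to Sdha, was 0.30 higher in 66708, and in 88943 Coa5 and Ndufaf2, factors of complexes IV and I, were at -0.48 and -0.34.

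Of 15 electron carrier genes, 2 were higher and 4 lower in 66708 (median -0.0039), and 1 higher and 7 lower in 88943 (median -0.065), again near the share of all genes for lower calls. Cycs, somatic cytochrome c, was 1.22-fold higher in 66708 (limma adjusted p = 0.000115) and 2.19-fold lower in 88943 (limma adjusted p = 4.30e-11). Genes of ubiquinone synthesis went both ways in 66708: Coq3 (-0.16), Coq2 (-0.15), Pdss2 (-0.13) and Coq5 (-0.12) were lower and Coq9 (0.14) was higher. Each of these 5 calls was lost without replicate 1 or without replicate 2 of 66708, those of Pdss2 and Coq5 without either. In 88943 Pdss1 (-0.31) and Coq7 (-0.22) were lower, as were Coq3, Coq4 and Coq5, whose calls were each lost without 1 of the 88943 libraries. Of 17 citric acid cycle genes, 5 were higher and 1 lower in 66708 (median 0.061) and 3 higher and 8 lower in 88943 (median -0.075), the latter close to the share of all genes. The largest differences were Mdh2, malate dehydrogenase, at 0.32 in 66708 and Idh3a, a subunit of isocitrate dehydrogenase, at -0.58 in 88943, 1.65-fold lower.

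Regulators of mitochondrial genes were mixed in 66708, 3 higher and 4 lower of 13 (median -0.012), and mostly lower in 88943, 9 lower and 2 higher of 12 (median -0.19). Nrf1 was 1.29-fold higher in 66708 (limma adjusted p = 0.000306) and 1.28-fold lower in 88943 (limma adjusted p = 0.000108). Pprc1, a coactivator of the PGC-1 family, was at -0.55, and Gabpa, the DNA-binding subunit of GABP, at -0.45 in 88943. The other called genes of this list in 66708 went both ways. Pprc1 (0.15) and Gabpa (0.12) were higher, and Gabpb1 (-0.18), Tfb2m (-0.16), Ppargc1b (-0.11) and Tfb1m (-0.098) were lower. The list nearest to the subunits was that of nucleotide and phosphate carriers with the ATP synthase inhibitor: 7 of 7 were higher in 66708 (median 0.22) and 6 of 7 lower in 88943 (median -0.25). Slc25a5, an ADP/ATP carrier, was 1.36-fold higher in 66708 (limma adjusted p = 1.40e-06) and 1.58-fold lower in 88943 (limma adjusted p = 9.05e-10), and Vdac2, a pore of the outer membrane, was at 0.24 and -0.48. The subunits encoded by mitochondrial DNA were not analysed here.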

How the data were processed

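RNA sequencing profiles of 20 libraries, 2 per hairpin, were analysed as 2 tables of 10 columns. The labels list 40 samples, 4 per hairpin, and the columns could not be tied to single samples, so each was used as 1 replicate of its hairpin. Per the labels' protocols, 100 ng of total RNA was amplified (NuGEN Ovation RNA-Seq V2), cDNA was sheared to 200 bp and 76 bp reads were sequenced. The submitters' processing notes name Bowtie2, HTSeq, DESeq and mm10. The sources used here give no versions, annotation or strand setting. The authors' deposited values are variance-stabilized and log2-like, and genes without reads hold the minimum, 7.92 (Slpi table) or 8.12 (Mgp table). The transform was inverted: 100% of values came out as whole reads, within 0.001 of a read and, above 1000 reads, within the same tolerance in proportion to the count. Scaled reads are these reads divided by the table's size factor, and CPM uses library totals.

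Genes with a mean at least 1 unit above the minimum were tested, 9489 (Slpi table) and 9174 (Mgp table), with limma 3.58.1 (R 4.3.3; intensity trend, means model over the 5 hairpins, two-sided). P-values were adjusted by Benjamini-Hochberg over all tested genes and calls made under 0.05. The code was checked on simulated data. Gene positions and lengths come from GENCODE M21 (GRCm38). Promoters are from RefSeq (GRCm38.p6; 69 members matched). Named genes were, per complex and table, up to 4 called members with the largest difference in each direction, the most abundant and the least different. Added to these were up to 3 called members for each shERWOOD contrast, the isoform families, both targets, and up to 3 called genes of each other list. Members described beyond this rule, such as Ndufs1 in 66708 and Uqcr11 in 88943, were chosen after their values were seen. Members and lists were chosen with earlier results of these data known. Alternatives covered the filter, the scaling, each library left out, a replicate block, hairpin means as samples and, added after seeing the data, voom with the table's size factors or library totals and subtraction of length and GC trends. An untransduced line was not among the samples, so no background of that kind was measured. The values of 1 member are not reported here.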

Additional observations from a re-analysis of the deposited data

Results flagged for a closer look

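The 2 TRC hairpins differed from the shERWOOD hairpins of their own tables in opposite directions in these genes: both 66708 libraries lay on the higher side and both 88943 libraries on the lower side. The difference between the hairpins was not tested, since the tables were normalized separately. The median log2 difference over all tested members was 0.225 in 66708 and -0.135 in 88943. By complex the medians in 66708 and 88943 were 0.192 and -0.091 for I, 0.193 and -0.137 for II, 0.113 and -0.146 for III, 0.311 and -0.153 for IV, and 0.253 and -0.239 for V.

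In 22 of 75 members (29.3%, against 14.4% of the 9144 genes tested in both tables) both libraries lay above all shERWOOD libraries in 66708 and below all of them in 88943. The values that follow are log2 differences, first in 66708 and then in 88943. In complex V they were 0.17 and -0.14 for Atp5a1 (alpha subunit), 0.28 and -0.23 for Atp5c1 (gamma), 0.30 and -0.27 for Atp5e (epsilon), 0.22 and -0.51 for Atp5f1, 0.34 and -0.25 for Atp5g1, 0.44 and -0.54 for Atp5g3, 0.51 and -0.40 for Atp5l, and 0.25 and -0.31 for Atp5o. Complex IV held 4 of the 22, with 0.33 and -0.28 for Cox5a, 0.31 and -0.24 for Cox7a2, 0.23 and -0.37 for Cox7b, and 0.26 and -0.27 for Cox7c. The complex I members were Ndufa1 with 0.20 and -0.12, Ndufa4 with 0.45 and -0.43, Ndufa5 with 0.21 and -0.11, Ndufa9 with 0.26 and -0.24, Ndufb7 with 0.18 and -0.25, Ndufb10 with 0.29 and -0.18, and Ndufc2 with 0.30 and -0.28. Sdhb (0.30 and -0.26) and Sdhd (0.28 and -0.54) of complex II and Uqcrh (0.42 and -0.22) of complex III completed the set.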

How the results depend on the processing

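Leaving out each library in turn gave 40 to 62 members higher and 1 to 1 lower in 66708, with medians of 0.185 to 0.285, and 3 to 8 higher and 28 to 49 lower in 88943, with medians of -0.162 to -0.0999. The F test gave 0 to 27 in the Slpi table and 4 to 49 in the Mgp table. The shERWOOD contrasts gave 0 to 26 (Slpi1U1), 0 to 0 (Slpi1U2), 0 to 1 (Slpi2), 0 to 11 (Slpi4), 0 to 36 (Mgp1), 0 to 14 (Mgp1U1), 2 to 33 (Mgp2) and 0 to 17 (Mgp1U3). The share of all genes called also moved between these fits, as given above for single libraries. The ranges alone therefore do not tell the members apart from all genes. A lone library was taken to vary like the rest.

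The share of all genes called in the same fit follows the counts in parentheses. For shERWOOD contrasts it covers calls in either direction. With no filter, 2 members were lower in 66708 (13.2%). The F tests then called 0 for Slpi (1.29%) and 4 for Mgp (7.66%). In that setting Slpi4 had 0 calls (1.07%), Mgp1 1 (1.3%), Mgp1U1 0 (1.48%), Mgp2 4 (4.43%) and Mgp1U3 1 (4.35%). With a minimum of 3 units, which left 29 members in the Slpi and 26 in the Mgp table, 22 were higher (39.8%) and 0 lower (24%) in 66708 and 3 higher (18.2%) and 15 lower (59.3%) in 88943, where the lower share of members, 57.7%, did not exceed that of all genes. The Mgp F test then called 7 (26.9% of members, all genes 40%). Slpi4 had 1 call (9.3%), Mgp1 2 (10.9%), Mgp1U1 0 (5.1%), Mgp2 3 (28.9%) and Mgp1U3 3 (23.1%). Fewer members were tested. Equal library medians gave 8 higher (35.7%) and 33 lower (35.3%) in 88943. Quantile normalization gave 14 higher (33.8%) and 34 lower (36%) in 88943, with a median of -0.0814, and 1 call for Slpi4 (5.95%). It turned Cox4i1 (0.176), Ndufb9 (0.106) and Sdhc (0.0901) to higher in 88943. Library totals gave 2 lower (35.2%) in 66708, 16 higher (43%) and 28 lower (29%) in 88943 with a median of -0.0872, and turned Atp5b (0.00378), Cox4i1 (0.125) and Sdhc (0.118). Medians on the voom scale were 0.313 (TMM) and 0.306 (table size factors) in 66708 and -0.214 and -0.224 in 88943, a scale without compression of low values. Subtracting the length curve gave 2 lower (23.8%) and a median of 0.133 in 66708, and 10 higher (29.2%) in 88943. The F tests then called 2 for Slpi (8.47%) and 11 for Mgp (29.4%), the latter 14.7% of members. Slpi2 had 1 call (4.29%), Mgp1 2 (7.24%) and Mgp1U1 0 (6.96%). Subtracting length and GC gave 3 lower (24.1%) and a median of 0.13 in 66708, where it turned Ndufa12 to -0.103. The F tests then called 2 for Slpi (11.8%) and 10 for Mgp (25.7%). Slpi1U1 had 1 call (2.71%), Slpi2 1 (5.62%), Mgp1 2 (7.71%), Mgp2 7 (12.4%) and Mgp1U3 3 (13.9%). Hairpin means as samples gave 47 higher (19.3%) and 1 lower (12.8%) in 66708 and 1 higher (17.7%) and 25 lower (27.5%) in 88943. Except where stated the cause was not tested.

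Column numbers did not pair the libraries: same-numbered deviations correlated at -0.526 to 0.55 in the Slpi table (3 of 10 hairpin pairs over 0.1) and -0.167 to 0.285 in the Mgp table (4 of 10). With the replicate block, 56 members were higher (31.6%) and 1 lower (23.2%) in 66708 and 5 (29.3%) and 46 (42.6%) in 88943, while Mgp1 had 22 calls (10.3%), Mgp1U1 5 (6.91%) and Mgp1U3 11 (18.7%). Of 1972 single gene and setting pairs, 1907 kept direction and call, 45 lost the call, 13 gained one and 7 turned. The planned edgeR fits were not run. Of the 9 members never tested, 7 had 5 to 56 reads over the 20 libraries and Cox8c and Ndufs5 are listed at 0. Counts of genes with pseudogene copies or overlapping exons, such as Atp5o and Ndufb6, are uncertain.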
